A study of Mus musculus with 13 samples.

Results

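The genes described here are 10 integrin subunits that fibroblasts use to hold extracellular matrix: the alpha subunits Itga1, Itga3, Itga5, Itga8, Itga11 and Itgav and the beta subunits Itgb1, Itgb3, Itgb5 and Itgb8. They were chosen by gene name from a table of 43346 genes measured in 13 RNA sequencing libraries of mouse lung fibroblasts, in which 26 integrin subunits have an entry. Each of the 10 has 1 entry, and all 10 passed the filter on low values, which asked for at least 1 RPKM (read density scaled to gene length and library size) in at least 2 libraries. Of them, 9 were at or above 1 RPKM in every library, the exception being Itgb8. The libraries fell into 4 groups. Sham controls (n = 2), bleomycin at day 14 (n = 3) and bleomycin at day 30 (n = 5) came from Col1a1-GFP mice, in which a collagen promoter marks cells with a green fluorescent protein, at 8 weeks of age by their labels. Pneumonectomy at day 14 (n = 3) is labelled as primary sorted lung fibroblasts, and the series' design text counts it among the Col1a1-GFP cells too. The column headings call all 4 groups young, and no age in weeks is given for pneumonectomy. Bleomycin is a drug that injures the lung and is followed by scarring; in pneumonectomy a lung is removed by surgery and the other side grows to compensate. The labels give no sorting gate and no sex. They do not say whether animals were pooled, so a p-value measures only the spread between these libraries. The replicate numbers are those of the labels, except that the pneumonectomy columns carry none and are called A, B and C.

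Integrins are receptors made of an alpha and a beta subunit that span the cell membrane and tie the matrix outside to the actin skeleton inside. The pair decides the ligand. Itgb1 encodes the common partner of the alpha subunits for collagens (Itga1, Itga11), laminins (Itga3), fibronectin (Itga5) and nephronectin (Itga8), whereas the product of Itgav pairs with those of Itgb1, Itgb3, Itgb5 and Itgb8 and binds vitronectin, fibronectin and the latent form of TGF-beta. Release of active TGF-beta by integrins that contain the Itgav product is a known step in tissue scarring, and Itga8 is a known marker of fibroblasts near the alveoli.

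The promoters of Itga8 and Itga5 are shown because these genes moved in opposite directions after bleomycin. The RefSeq windows (GRCm38.p6) reach from 250 bases before to 50 bases after the start of transcription, and 9 of the 10 members matched an entry, Itgb3 being the exception. The bases before the start are printed 5′ to 3′ on the strand of the gene, with capitals for GC boxes (GGGCGG, searched on both strands and therefore also read as CCGCCC).

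Itga8, chr2:12301945-12302194, minus strand: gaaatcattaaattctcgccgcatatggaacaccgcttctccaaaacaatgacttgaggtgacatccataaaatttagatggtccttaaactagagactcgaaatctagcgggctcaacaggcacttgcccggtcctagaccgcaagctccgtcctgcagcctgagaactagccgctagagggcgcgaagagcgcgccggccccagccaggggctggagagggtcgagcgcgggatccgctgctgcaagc
Itga5, chr15:103366792-103367041, minus strand: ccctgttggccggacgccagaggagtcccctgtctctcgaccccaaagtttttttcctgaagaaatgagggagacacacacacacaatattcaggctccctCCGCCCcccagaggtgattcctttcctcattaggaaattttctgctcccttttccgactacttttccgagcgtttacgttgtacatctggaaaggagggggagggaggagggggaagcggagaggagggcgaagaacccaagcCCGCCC

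The Itga5 window held 2 GC boxes, starting at positions -149 and -6 from the start site, and the Itga8 window held none. Their base composition was alike, with 59% and 58.7% G and C against a median of 52.7% over 32851 promoter windows. A GC box was found in the windows of 5 of the 9 genes (Itga3, Itga5, Itgav, Itgb1 and Itgb5) and in 35.7% of all promoters. The CCAAT box (CCAAT) was found in 2 of the 9, Itga3 and Itgb8, and in 37.4% of all promoters. The AP-1 motif (TGANTCA) occurred in 1 of the 9, in a second Itga3 window, and in 7.81% of all. The TATA box (TATAAA, 13.6% of all) and the CArG box (1.63% of all) occurred in 0 of the 9. All motifs were searched on both strands of the whole window, and no match overlapped one of another motif in the windows shown. These matches describe the letters only.

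On the mm10 assembly, Itga8 lies on chromosome 2 from 12106632 to 12301922, Itgav on the same chromosome from 83724397 to 83806916, Itga1 on chromosome 13 from 114953096 to 115101964 and Itga3 on chromosome 11 from 95044474 to 95076801. Itga5 lies on chromosome 15 from 103344286 to 103366763, Itga11 on chromosome 9 from 62677826 to 62783982, Itgb1 on chromosome 8 from 128685654 to 128733200 and Itgb3 on chromosome 11 from 104608000 to 104670476. Itgb5 lies on chromosome 16 from 33829665 to 33949338 and Itgb8 on chromosome 12 from 119158022 to 119238802. In the GENCODE M21 annotation, 3 members share exonic bases with another gene. Itga8 shares 5.05% of its exonic bases with the antisense gene E030013I19Rik, Itgav shares 5.90% with Gm13684 on the opposite strand and Itga1 shares 3.68% with Gm49395 on the same strand. The use of strand in the authors' counting is not given in the sources used here.

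Depth, estimated from the steps between low values, was 67.6 M to 200.2 M reads per library, and the member with the fewest estimated reads, Itga3, had at least 735 in each. None of 8 fibroblast markers was under 1 RPKM throughout a group, and Col1a1 was at 437 to 1633 RPKM in all libraries. Of these 8, 2 were called higher and 4 lower at day 14 of bleomycin against sham (median log2 difference -0.53), 1 higher and 5 lower against pneumonectomy (-1.07), and 4 higher and 1 lower at day 30 against day 14 (0.56). Markers of other cells differed between groups too. The summed level of 15 endothelial markers was 53.4 to 55.3 RPKM in sham, 404 to 763 at day 14 of bleomycin, 42.0 to 48.6 at day 30 and 41.6 to 76.4 after pneumonectomy, and none of these markers was at 0 throughout a group. The summed level of 14 macrophage markers was 34.1 to 42.1 RPKM in sham, 170 to 566 at day 14, 246 to 803 at day 30 and 34.8 to 55.5 after pneumonectomy. The summed level of 15 pericyte and smooth muscle markers was 1264 and 648 RPKM in sham replicates 1 and 2, 560 to 700 at day 14, 558 to 758 at day 30 and 1224 to 1628 after pneumonectomy. The surfactant gene Sftpc reached 970 RPKM in day 30 replicate 3 against at most 65.1 elsewhere. By Xist and Ddx3y, all day 30 libraries were female, sham replicate 1 held both signals, and the others were male. The 2 sham libraries stood apart from each other, since Itga5 was at 24.7 and 12.6 RPKM and Itga11 at 12.3 and 6.73 RPKM in replicates 1 and 2, and 9 of the 10 members were higher in replicate 1, whereas Itgav was at 6.77 RPKM in both.

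The first question was how the subunits differed from sham at day 14 after each treatment. Differences are log2 differences of scaled RPKM plus 0.1 with the standard error (SE) of a limma fit, and a gene is called when its Benjamini-Hochberg adjusted p over 12938 genes is under 0.05. After bleomycin, 9 of the 10 members were called, 4 higher (Itga1, Itga3, Itga5, Itgb1) and 5 lower (Itga8, Itga11, Itgb3, Itgb5, Itgb8), and Itgav was not called. Of all genes tested, 63.3% were called, 33.4% higher and 29.9% lower. Changes over 2-fold were called for 5 members (Itga1, Itga3, Itga8, Itga11 and Itgb3) and for 22.1% of genes. The median size of the log2 difference was 1.04 over the members and 0.436 over all genes.

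After pneumonectomy, 9 members were called, 8 of them higher and 1, Itga11, lower, and Itgb3 was not called. Among all genes 42% were called, 22.6% higher and 19.3% lower. Changes over 2-fold were called for 3 members (Itga1, Itga3 and Itga8) and for 9.81% of genes. The median size was 0.767 over the members and 0.289 over all genes. Both comparisons use the same 2 sham libraries, so that their values are given side by side and no likeness between them is drawn. Without sham replicate 2 the number of members called after pneumonectomy dropped from 9 to 4 (Itga8, Itga11, Itgb1 and Itgb3) and that of all genes from 5430 to 3340, while after bleomycin 6 of the 9 members kept their call.

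**Figure D1:**
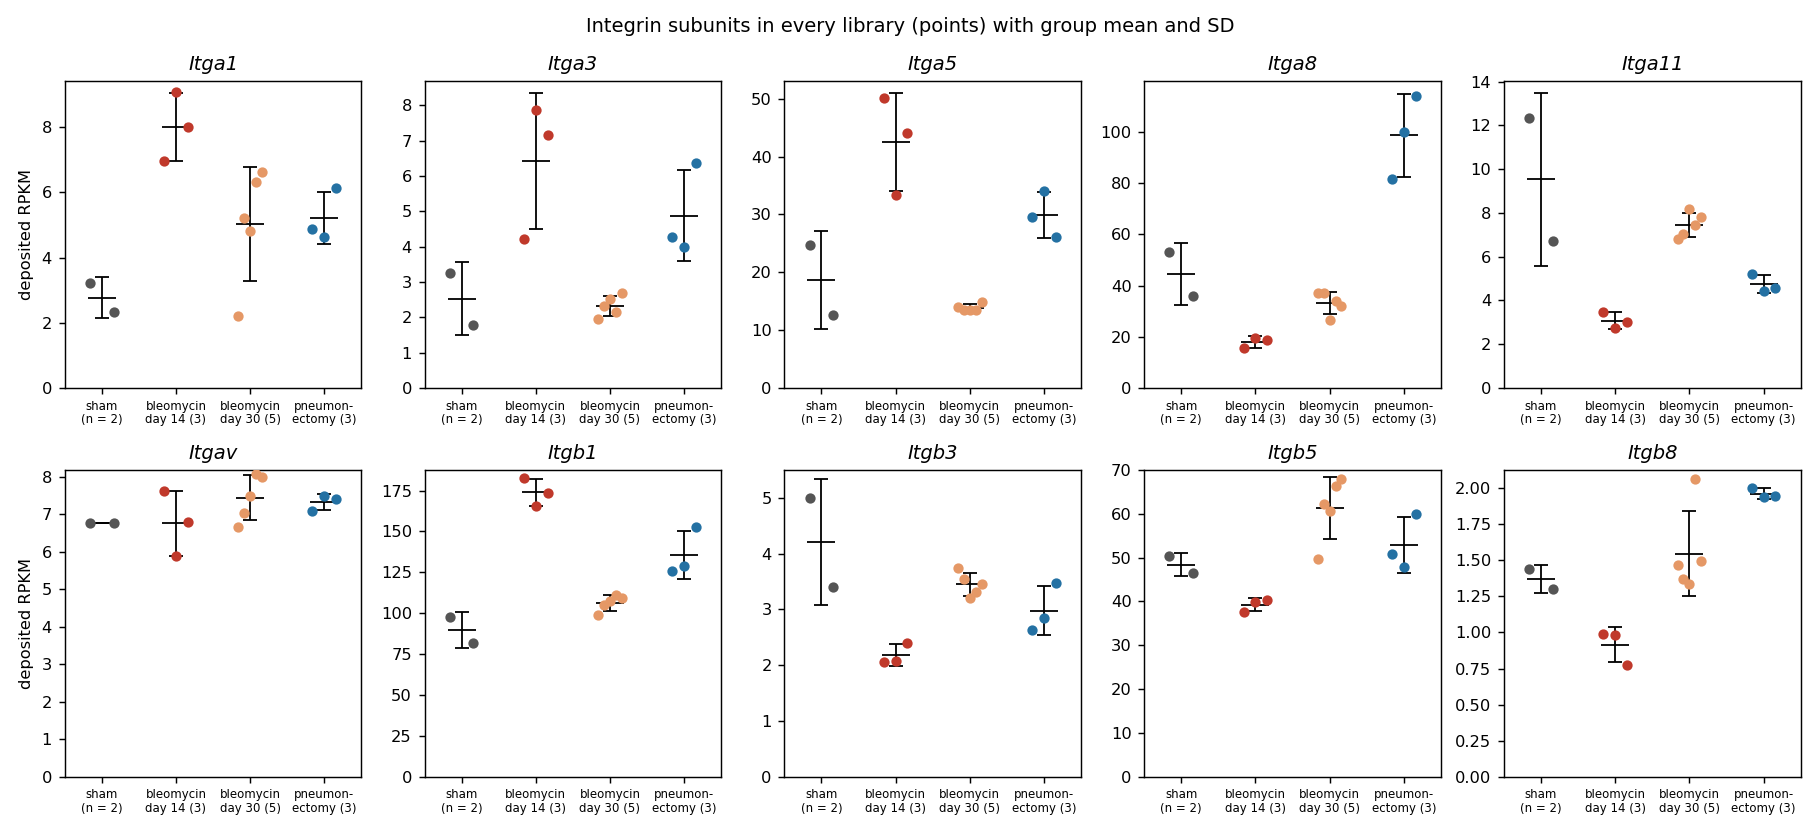
Level of each of the 10 integrin subunits in every library, in deposited RPKM on a linear axis from 0 that differs between panels. Points are libraries, the horizontal bar is the group mean and the whiskers are 1 SD; Itga8 at 81.8 to 114 RPKM after pneumonectomy and 15.5 to 19.6 at day 14 of bleomycin lies on either side of sham (53.2 and 35.8).

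Itga8, the receptor subunit for nephronectin, was the most abundant alpha member in sham and moved in opposite directions after the 2 treatments. Its level was 53.2 and 35.8 RPKM in sham, 15.5, 19.6 and 18.7 RPKM at day 14 of bleomycin, and 81.8, 100.2 and 114 RPKM after pneumonectomy. No library of these 3 groups overlapped with another group, the bleomycin libraries lying lowest and the pneumonectomy libraries highest. The log2 difference from sham was -1.53 ± 0.19 after bleomycin (limma adjusted p = 2.96e-05) and 1.39 ± 0.19 after pneumonectomy (adjusted p = 0.000212). Set directly against pneumonectomy, the bleomycin level was lower by a log2 difference of -2.91 ± 0.17 (adjusted p = 1.18e-07), a factor of 7.53. At day 30 of bleomycin Itga8 was at 37.0, 37.0, 26.4, 33.8 and 32.1 RPKM in replicates 1 to 5, above all day 14 libraries and reaching into the sham range. It was higher than at day 14 by 1.01 ± 0.15 (adjusted p = 0.000146). Against sham it was lower by a log2 difference of -0.52 ± 0.17 (adjusted p = 0.0439). Without sham replicate 1 that difference was -0.24 and not called, without sham replicate 2 it was -0.81, and 9 of 16 alternatives in all ended the call.

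Beside Itga8, the values of other features differed between the groups. The antisense gene E030013I19Rik, which shares exonic bases with it, was at 6.94 and 4.55 RPKM in sham, 1.41 to 1.84 at day 14 of bleomycin, 2.48 to 3.94 at day 30 and 9.25 to 11.3 after pneumonectomy. Reads of the 2 genes in their shared bases cannot be told apart. The pericyte and smooth muscle marker sum was highest in the pneumonectomy libraries and in sham replicate 1. Between pneumonectomy and sham, 9 of 15 of these markers were called higher and 1 lower, and their part in the result was not tested. Between day 14 of bleomycin and sham, 2 of these 15 markers were called higher and 5 lower (median log2 difference -0.31). Their part in that result was not tested either. Mesothelial markers also stood higher after pneumonectomy (7 of 8 tested, summed level 15.1 to 50.1 RPKM against 6.54 to 7.14 in sham), and their part was not tested. In bulk libraries, fewer cells of a type and less RNA per cell cannot be told apart.

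Itga5, whose product forms the main fibronectin receptor with that of Itgb1, was higher after both treatments at day 14. It was at 24.7 and 12.6 RPKM in sham, 50.1, 33.4 and 44.1 at day 14 of bleomycin and 29.6, 34.1 and 26.1 after pneumonectomy. Both treated groups lay above both sham libraries, and they overlapped each other. The log2 difference from sham was 1.00 ± 0.24 after bleomycin (limma adjusted p = 0.00373) and 0.97 ± 0.24 after pneumonectomy (adjusted p = 0.00827). Both calls rested on sham replicate 2, without which the differences were 0.51 and 0.49 and no longer called, and both were lost when the compared groups were fitted alone. Between the treatments the difference was 0.03 ± 0.22 (adjusted p = 0.914), and it was 0.49 and called on the deposited scale. At day 30 Itga5 was at 14.02, 13.53, 13.45, 13.53 and 14.92 RPKM, a narrow band below every day 14 library. The log2 difference from day 14 was -1.46 ± 0.20 (adjusted p = 5.79e-05), and that from sham was -0.46 ± 0.22 and not called.

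Itgav, the alpha subunit shared by receptors for vitronectin and latent TGF-beta, varied least. Its level was 6.77 RPKM in both sham libraries, 7.61, 5.87 and 6.79 at day 14 of bleomycin, 6.65 to 8.07 at day 30 and 7.08, 7.49 and 7.41 after pneumonectomy. The bleomycin libraries lay on both sides of sham, and the pneumonectomy libraries lay just above it. The log2 difference from sham was -0.25 ± 0.11 after bleomycin (limma adjusted p = 0.0649; -0.36 and called without bleomycin replicate 1) and 0.33 ± 0.11 after pneumonectomy (adjusted p = 0.0313). That last call was lost under 8 of 12 alternatives, among them the deposited scale (0.11) and upper-quartile scaling (0.20). Bleomycin stood below pneumonectomy by a log2 difference of -0.58 ± 0.10 (adjusted p = 0.000231), which on the deposited scale was -0.12 and not called.

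The collagen receptor subunits Itga1 and Itga11 went opposite ways. Itga1, which binds mainly basement membrane collagen, was at 3.22 and 2.33 RPKM in sham, 6.97, 9.08 and 8.00 at day 14 of bleomycin and 4.88, 4.64 and 6.15 after pneumonectomy. Itga11, a receptor subunit for fibrillar collagen made by fibroblasts, was at 12.3 and 6.73 RPKM in sham, 3.49, 2.75 and 3.00 at day 14 of bleomycin and 5.21, 4.45 and 4.55 after pneumonectomy. For both genes neither treated group overlapped with sham. Itga1 rose by 1.27 ± 0.36 after bleomycin (limma adjusted p = 0.00878) and by 1.11 ± 0.36 after pneumonectomy (adjusted p = 0.0266). Both Itga1 calls were lost without sham replicate 2, at 1.03 and 0.89, and the call after pneumonectomy was also lost without library A (1.14), without library C (1.00) and on the deposited scale (0.90). The log2 difference of Itga11 was -1.78 ± 0.20 after bleomycin (adjusted p = 1.49e-05), with -1.35 without sham replicate 1. After pneumonectomy it was -0.72 ± 0.20 (adjusted p = 0.0149), a difference that was -0.28 and not called without sham replicate 1 and -1.15 without sham replicate 2, and that was not called with the compared groups alone. Itga11 was also lower after bleomycin than after pneumonectomy (-1.06 ± 0.18, adjusted p = 0.000251), whereas Itga1 was not called between them (0.15 ± 0.32).

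At day 30, Itga11 was back at 6.78, 7.04, 8.17, 7.45 and 7.80 RPKM, between the 2 sham libraries and above every day 14 library (log2 difference from day 14 of 1.37 ± 0.16, limma adjusted p = 2.27e-05). Itga1 was at 2.205 RPKM in replicate 1 and at 5.22, 4.81, 6.33 and 6.63 in replicates 2 to 5. Its difference from day 14 was -0.62 ± 0.29 and not called (adjusted p = 0.0815; -0.74 and called on the deposited scale), and that from sham was 0.65 ± 0.33 and not called, but 0.91 and called without day 30 replicate 1. Within a library, the ratio of Itga1 to Itga11 was 0.261 and 0.345 in sham, 2.00 to 3.30 at day 14 of bleomycin, 0.325 to 0.850 at day 30 and 0.937 to 1.35 after pneumonectomy. This ratio needs no scaling between libraries, and at day 14 of either treatment it lay above both sham libraries.

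Itga3, a laminin receptor subunit that is best known from epithelium, was a low-level member. It was at 3.26 and 1.79 RPKM in sham, 4.23, 7.86 and 7.15 at day 14 of bleomycin, 1.95, 2.31, 2.51, 2.15 and 2.68 at day 30 and 4.28, 3.98 and 6.37 after pneumonectomy. Both day 14 groups lay above sham, and day 30 fell between the sham libraries. Its log2 difference from sham was 1.08 ± 0.28 after bleomycin (limma adjusted p = 0.00513) and 1.17 ± 0.28 after pneumonectomy (adjusted p = 0.00625). Without sham replicate 2 these were 0.66 and 0.75 and not called. Day 30 stood below day 14 by a log2 difference of -1.26 ± 0.22 (adjusted p = 0.00048). The summed level of 14 alveolar epithelial markers was 5.19 to 16.6 RPKM in sham and 41.7 to 96.5 after pneumonectomy. At day 14 of bleomycin it was 9.975 to 28.9 RPKM. Of 9 tested, 2 were called higher after pneumonectomy and 1 after bleomycin. The part of epithelial RNA in the results for Itga3 was not tested.

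Among the day 14 bleomycin libraries, replicate 1 had the lowest endothelial marker sum (404 RPKM against 763 and 702) and the lowest levels of Itga1 and Itga3, but the highest of Itga5. Between bleomycin and sham 14 of 15 endothelial markers were called higher, with Cdh5, the cadherin of endothelial junctions, at 64.8, 123 and 114 RPKM against at most 1.39 in sham. Between pneumonectomy and sham 12 of 15 were called higher, though Cdh5 reached only 6.62 RPKM. In that comparison the 15 markers had a median log2 difference of 1.68 and summed to 41.6 to 76.4 RPKM, against 53.4 to 55.3 in sham. Itga1, Itga3, Itga5 and Itgb1 differed from sham by 1.11, 1.17, 0.97 and 0.82 after pneumonectomy. The part of endothelial RNA in the results for these 4 members was not tested in either comparison.

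Itgb1, the beta subunit shared by most of these receptors, was the most abundant integrin gene measured. It was at 97.6 and 82.0 RPKM in sham, 183, 166 and 174 at day 14 of bleomycin and 126, 129 and 152 after pneumonectomy, with no overlap between the 3 groups. It rose by 0.71 ± 0.11 after bleomycin (limma adjusted p = 0.000145) and by 0.82 ± 0.11 after pneumonectomy (adjusted p = 0.000177), and both calls held under every alternative run. On the deposited scale bleomycin stood above pneumonectomy by 0.36 and was called, whereas on the scaled values the difference was -0.10 ± 0.10 and not called. On that scale the median of all genes in this comparison was 0.468, against 0.02 after scaling. At day 30 Itgb1 was at 98.7, 105, 107, 111 and 109 RPKM, lower than at day 14 (-0.59 ± 0.09, adjusted p = 0.000134). Against sham it was not called.

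The other beta members were lower after bleomycin. Itgb5, which pairs with the Itgav product, was at 50.3 and 46.5 RPKM in sham and 37.5, 39.9 and 40.3 at day 14 of bleomycin. After pneumonectomy it was at 50.8, 47.8 and 60.1 RPKM and overlapped with sham. The log2 difference was -0.55 ± 0.12 after bleomycin (limma adjusted p = 0.002; -0.30 and not called on the deposited scale) and 0.34 ± 0.12 after pneumonectomy (adjusted p = 0.0394), the latter lost under 8 of 12 alternatives. Itgb5 reached 49.8 to 67.9 RPKM at day 30, above every day 14 library (0.76 ± 0.10, adjusted p = 3.82e-05).

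Itgb3, known from platelets and from spreading cells, was at 5.01 and 3.41 RPKM in sham, 2.05, 2.08 and 2.40 at day 14 of bleomycin and 2.62, 2.84 and 3.47 after pneumonectomy. Only the bleomycin libraries lay clear of sham. The log2 difference was -1.13 ± 0.14 after bleomycin (limma adjusted p = 3.1e-05) and -0.25 ± 0.14 after pneumonectomy (adjusted p = 0.173), the latter called lower on the deposited scale (-0.47), under upper-quartile scaling (-0.38) and without sham replicate 2 (-0.53). The 10 platelet and megakaryocyte markers summed to at most 8.58 RPKM in any library, and Itgb3 was itself at most 5.01 RPKM. The part of platelet RNA in the values of Itgb3 was not tested.

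Itgb8, whose product activates latent TGF-beta together with that of Itgav, was the least abundant member. It was at 1.44 and 1.31 RPKM in sham, 0.987, 0.982 and 0.774 at day 14 of bleomycin and 2.01, 1.94 and 1.95 after pneumonectomy. The 3 groups did not overlap, and like Itga8 it was lowest after bleomycin and highest after pneumonectomy. The log2 difference was -0.77 ± 0.16 after bleomycin (limma adjusted p = 0.00153; -0.43 with a pseudocount of 1) and 0.70 ± 0.16 after pneumonectomy (adjusted p = 0.00541; 0.63 and not called without sham replicate 2). At day 30 it was at 1.47, 1.37, 1.34, 2.06 and 1.497 RPKM, replicate 4 standing above the rest, and was higher than at day 14 by 0.80 ± 0.13 (adjusted p = 0.00026; 0.45 with a pseudocount of 1).

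A direct comparison of the 2 treatments at day 14 leaves sham out. Of the 10 members, 6 were lower after bleomycin than after pneumonectomy (Itga8, Itga11, Itgav, Itgb3, Itgb5 and Itgb8), 0 were higher and 4 were not called (Itga1, Itga3, Itga5 and Itgb1). Of all genes, 70.8% were called, 36.2% higher and 34.6% lower, and the share over 2-fold was 23.2% against 3 members (Itga8, Itga11 and Itgb8). The median size was 0.73 over the members and 0.491 over all genes. Itgb8 differed by -1.47 ± 0.15 (limma adjusted p = 3.68e-06), Itgb5 by -0.89 ± 0.11 and Itgb3 by -0.88 ± 0.13. On the deposited scale Itga11, Itgb3, Itgb5 and Itgb8 were still called, at -0.61, -0.43, -0.42 and -1.03. Itgb8 was at -0.91 with a pseudocount of 1. Marker lists moved in the same comparison: 5 of 8 fibroblast, 12 of 15 pericyte and smooth muscle and 8 of 8 tested mesothelial markers were lower after bleomycin, with medians of -1.07, -1.56 and -2.27, and 15 of 15 endothelial markers were higher. Their part in the members' differences was not tested. The column headings call all groups young, but between the pneumonectomy libraries and the others the notes on preparation differ. Age in weeks, RNA quality, poly(A) selection and PCR cycles are stated only for sham and bleomycin. Preparation and pneumonectomy therefore cannot be told apart.

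**Figure D2:**
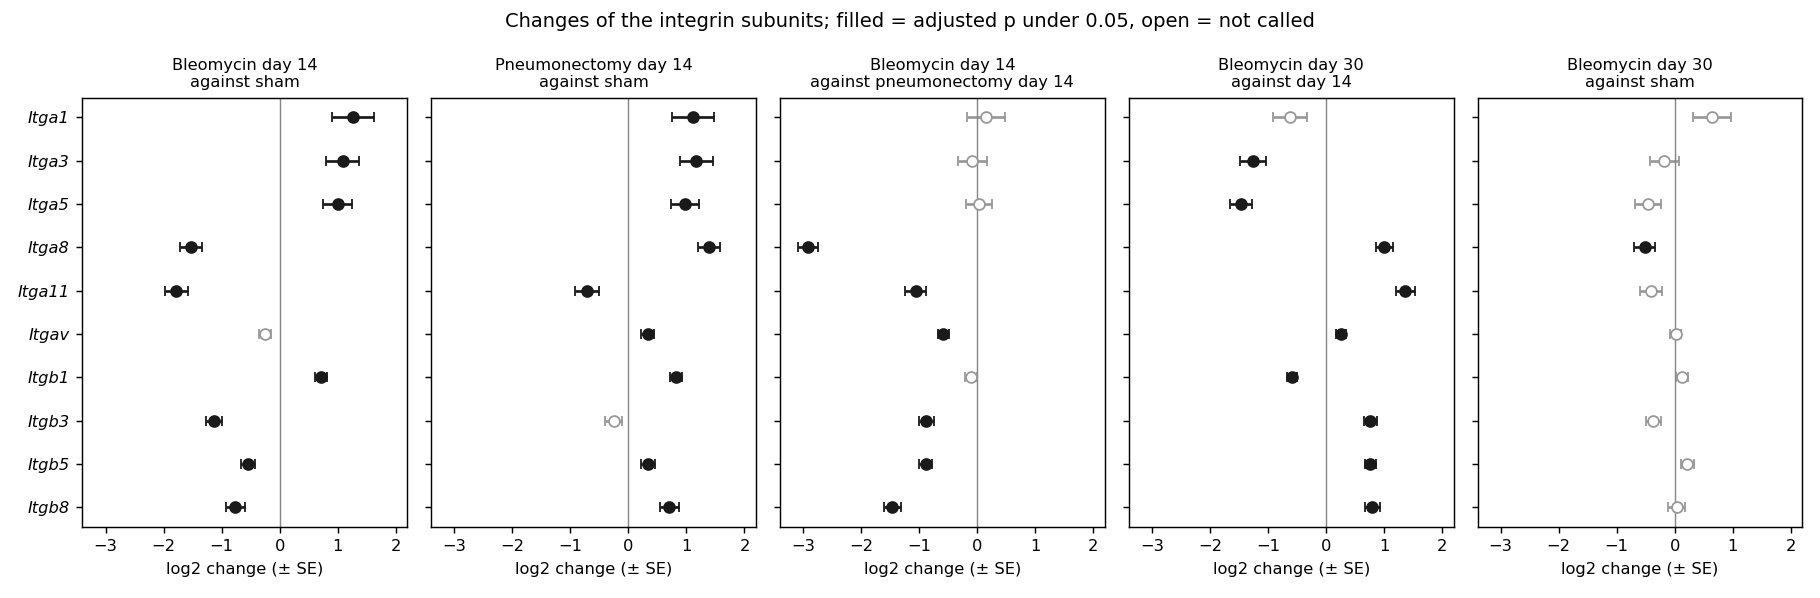
Log2 difference of the scaled level of each subunit in 5 comparisons (horizontal axis; 1 row per gene), with bars for 1 SE of the limma fit. Filled points have an adjusted p under 0.05; Itga8 lies at -1.53, 1.39 and -2.91 in the first 3 panels, and only Itga8 is filled in the last.

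The second question was what remained at day 30 of bleomycin. Between day 30 and day 14, 6 members were higher (Itga8, Itga11, Itgav, Itgb3, Itgb5, Itgb8), 3 lower (Itga3, Itga5, Itgb1) and Itga1 was not called. Of all genes, 59.6% were called, 28.9% higher and 30.7% lower, and the median size was 0.78 over the members and 0.323 over all genes. Each of these 9 changes has the opposite sign to that member's difference between day 14 and sham, comparisons that share the day 14 libraries. Itgav (0.26 ± 0.09, limma adjusted p = 0.0223) was not called without day 14 replicate 2 (0.16) or replicate 3 (0.24) and on the deposited scale (0.14). Between day 30 and sham only Itga8 was called, and it was lower. Of all genes, 28.8% were called, 14.8% higher and 14.1% lower, and the median size was 0.293 over the members and 0.204 over all genes. The number of members called was 0 without sham replicate 1, without day 30 replicate 3, without replicate 4 or without replicate 5, 4 without sham replicate 2 (Itga5, Itga8, Itga11 and Itgb3, all lower) and 4 without day 30 replicate 1 (Itga1 and Itgb5 higher, Itga8 and Itgb3 lower). A p that misses the threshold does not show that the levels were the same. Because the day 30 libraries carry a female and the day 14 libraries a male signal, time and sex cannot be told apart here. Sham replicate 1 held both signals and sham replicate 2 a male one. Between day 30 and sham, bleomycin and sex therefore cannot be told apart either.

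The make-up of the subunits within a library does not depend on scaling between libraries. Of the summed RPKM of the 6 alpha members, Itga8 made up 51.4% and 54.2% in sham, 17.6% to 25% at day 14 of bleomycin, 42.0% to 53.9% at day 30 and 61.6% to 69.3% after pneumonectomy. Itga5 made up 19.1% and 23.9% in sham, 42.5% to 57.0% at day 14, 18.8% to 21.4% at day 30 and 15.8% to 22.3% after pneumonectomy. At day 14 of bleomycin Itga5 thus replaced Itga8 as the leading alpha member in all 3 libraries, while Itga8 led in the other 10. The endothelial marker sum was 404 to 763 RPKM in these 3 libraries and at most 76.4 in the other groups. The part of endothelial RNA in the shares of alpha and beta members was not tested. The ratio of Itga8 to Itga5 was 2.15 and 2.84 in sham, 0.309, 0.589 and 0.425 at day 14, 1.96 to 2.73 at day 30 and 2.76 to 4.38 after pneumonectomy. Although Itga5 was higher than sham after both treatments, its share of the alpha members was above sham only after bleomycin.

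Among the 4 beta members, Itgb1 made up 61.5% and 63.2% in sham, 79.4% to 81.8% at day 14 of bleomycin, 60.0% to 64.2% at day 30 and 69.4% to 71.0% after pneumonectomy. Itgb5 took 32.6% and 34.9% in sham, 16.8% to 19.1% at day 14, 32.4% to 37.3% at day 30 and 26.4% to 28.0% after pneumonectomy. Itgb3 and Itgb8 stayed small parts, at most 3.25% and 1.13%. The balance of beta subunits therefore moved toward Itgb1 in both day 14 groups, further after bleomycin, and the day 30 range took in both sham libraries. The summed alpha members were at 103 and 66.1 RPKM in sham, 78.6 to 87.9 at day 14 of bleomycin, 62.8 to 72.1 at day 30 and 133 to 165 after pneumonectomy. The 10 members made up 84.9% to 92.2% of the RPKM of all 26 integrin subunits in a library.

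**Figure D3:**
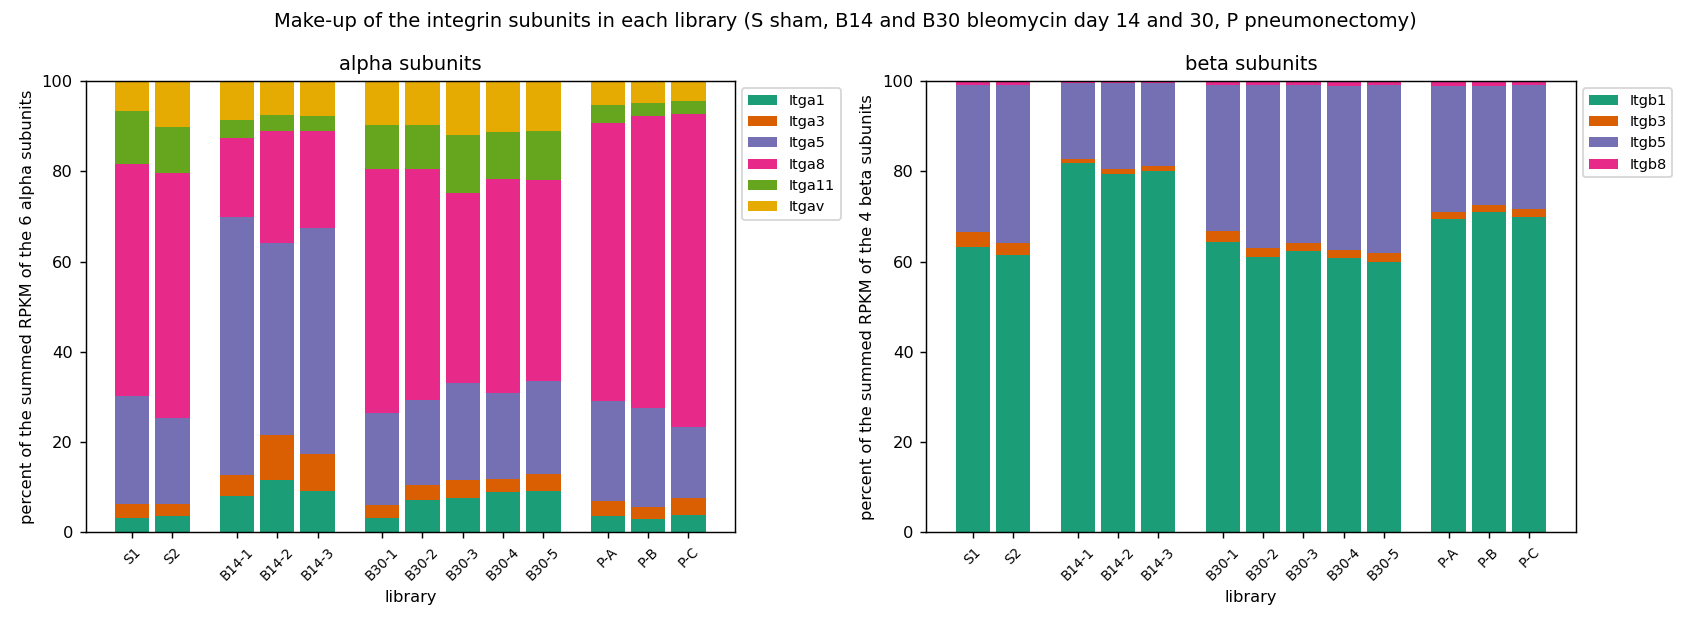
Make-up of the 6 alpha and 4 beta subunits in each of the 13 libraries, as percent of their summed RPKM (bars add to 100). Itga8 holds 51.4% and 54.2% of the alpha sum in sham and 17.6% to 25% at day 14 of bleomycin, where Itga5 holds 42.5% to 57.0%.

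Ligands of these receptors were also measured. Npnt (nephronectin), the ligand of the Itga8 receptor, was at 41.2 and 34.7 RPKM in sham, 42.5, 38.5 and 42.5 at day 14 of bleomycin, 40.1 to 48.4 at day 30 and 145, 157 and 192 after pneumonectomy. Receptor and ligand were thus both highest after pneumonectomy (Npnt 2.33 ± 0.12 against sham, limma adjusted p = 8.83e-07). After bleomycin, where Itga8 was lower than in sham, Npnt was not called (-0.12 ± 0.12, adjusted p = 0.403). Fn1 (fibronectin), the ligand of the Itga5 receptor and named here after its values were seen, was at 162 and 209 RPKM in sham, 777, 517 and 579 at day 14 of bleomycin, 192 to 424 at day 30 and 169, 173 and 185 after pneumonectomy. Itga5 and Fn1 both rose after bleomycin (Fn1 1.495 ± 0.29, adjusted p = 0.000814), and after pneumonectomy Itga5 was higher while Fn1 was not called (0.15 ± 0.29, adjusted p = 0.697). Among 17 of 20 genes for proteins of the RGD type tested, 9 were higher and 5 lower after bleomycin, 7 and 1 after pneumonectomy, and 7 and 2 at day 30, while 63.3%, 42% and 28.8% of all genes were called. Their median log2 differences were 0.84, 0.70 and 0.52, against 0.02, 0.01 and -0.00225 over all genes. Spp1 (osteopontin) rose by 8.40 ± 0.38 and Tnc (tenascin C) by 6.11 ± 0.41 after bleomycin, Adam15 rose by 0.84 ± 0.12, and Tgfbi changed by -2.94 ± 0.26. Thbs1 (thrombospondin 1) rose by 4.16 ± 0.35, Tnc by 4.32 ± 0.41 and Mfge8 by 0.70 ± 0.10 after pneumonectomy. At day 30 Spp1, Tnc, Ibsp and Fbn2 were higher than in sham, Ibsp being at 7.03 ± 3.13 RPKM (SD, n = 5) against 0 and 0.0143. Macrophage marker sums were high at day 14 and day 30 of bleomycin as well, and their part in the values of Spp1 and other ligands was not tested.

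**Figure D4:**
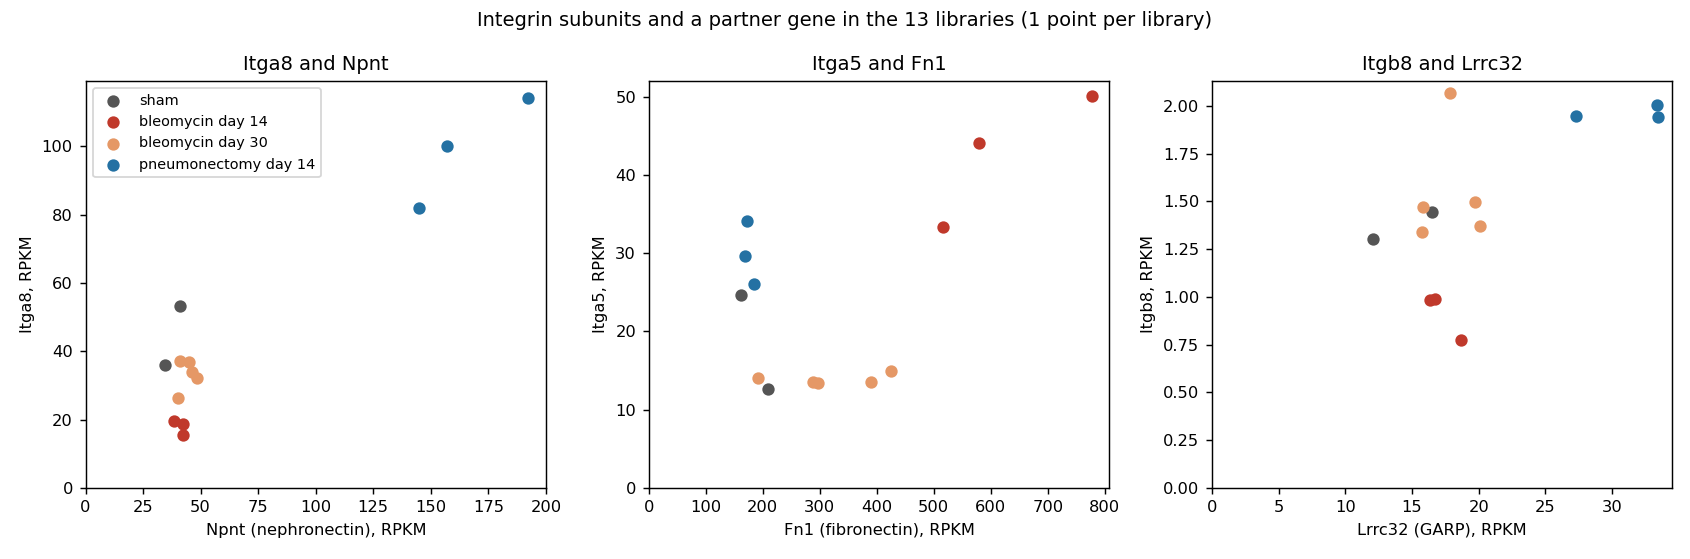
Level of Itga8 against Npnt, Itga5 against Fn1 and Itgb8 against Lrrc32 in deposited RPKM, 1 point per library and 1 colour per group. The pneumonectomy libraries stand apart for Npnt (145 to 192) and Lrrc32 (27.3 to 33.5), and the day 14 bleomycin libraries for Fn1 (517 to 777).

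Of 18 genes for collagens and laminins, 17 were tested. After bleomycin 8 were higher and 5 lower, after pneumonectomy 12 were higher and 0 lower, and at day 30 of bleomycin 6 were higher and 4 lower, where 63.3%, 42% and 28.8% of all genes were called. The medians were 0.30, 1.00 and 0.23, against 0.02, 0.01 and -0.00225 over all genes. Laminin chains led the genes that fell after bleomycin. Lama2 was at 6.34 ± 0.341 RPKM (SD, n = 3) against 31.7 ± 9.08 (n = 2), a log2 difference of -2.52 ± 0.14, and Lamb2, Lama4 and Lamc1 differed by -1.82 ± 0.10, -1.27 ± 0.08 and -1.16 ± 0.09. At day 30 Lama4, Lamc1 and Lamb2 were still lower than in sham, by -0.68 ± 0.07, -0.77 ± 0.08 and -0.61 ± 0.09. The basement membrane collagens Col4a1 and Col4a2, ligands of the Itga1 receptor, rose by 1.45 ± 0.20 and 1.69 ± 0.21 after pneumonectomy, and so did Col13a1 (2.60 ± 0.09) and Col6a1 (1.06 ± 0.15). The rise of Col4a1 was not particular to pneumonectomy, since it also rose by 1.87 ± 0.20 at day 14 of bleomycin (limma adjusted p = 9.56e-06) and by 0.73 ± 0.19 at day 30 (adjusted p = 0.0134). Between pneumonectomy and sham 12 of 15 endothelial and 9 of 15 pericyte and smooth muscle markers were called higher, and at day 14 of bleomycin 14 of 15 endothelial markers. Their part was not tested.

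Latent TGF-beta, the cargo opened by receptors with the Itgav product, was followed through 9 genes of its assembly. After bleomycin 3 were higher and 5 lower, after pneumonectomy 6 were higher and 0 lower, and at day 30 of bleomycin 3 were higher and 3 lower (all genes called: 63.3%, 42% and 28.8%). The medians were -0.59, 0.60 and 0.21. Tgfb1 was at 4.13 and 3.90 RPKM in sham, 20.7, 24.0 and 24.6 at day 14 of bleomycin and 6.86, 6.75 and 7.83 after pneumonectomy. It rose by 2.25 ± 0.15 and 1.03 ± 0.15 (limma adjusted p = 3.39e-07 and 0.000346), while the levels of Itgav differed by at most 0.33 from sham in either group. Of the binding proteins that hold the complex in the matrix, Ltbp4 was at 52.1 ± 11.1 RPKM (SD, n = 3) at day 14 of bleomycin against 415 ± 63.8 (n = 2). This was a difference of -3.25 ± 0.19, and at day 30 it was -0.83 ± 0.18. Ltbp2 rose by 4.33 ± 0.36 at day 14 of bleomycin, 2.78 ± 0.36 after pneumonectomy and 4.70 ± 0.33 at day 30 of bleomycin. The last of the 3 genes called higher at day 14 of bleomycin was Nrros, which tethers latent TGF-beta on macrophages and microglia (3.11 ± 0.31). In the same comparison 14 of 15 endothelial and 11 of 13 macrophage markers were higher, and their part in the values of Tgfb1 and Nrros was not tested. Lrrc32 encodes GARP, which displays latent TGF-beta on the cell surface. It was at 16.5 and 12.1 RPKM in sham, 16.7, 16.4 and 18.7 at day 14 of bleomycin and 33.3, 33.5 and 27.3 after pneumonectomy, where it rose by 1.36 ± 0.15 (adjusted p = 5.55e-05). Itgb8 and Lrrc32 were thus both higher after pneumonectomy, and after bleomycin Itgb8 was lower while Lrrc32 was not called (0.04 ± 0.15).

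Inside the cell, talins, kindlins and other adaptors join the integrin tail to actin. Of 23 adaptor genes tested, 11 were higher and 5 lower after bleomycin, 12 and 1 after pneumonectomy, and 6 and 6 at day 30, beside 63.3%, 42% and 28.8% of all genes called. The medians were 0.22, 0.44 and -0.12. After pneumonectomy 9 of 15 pericyte and smooth muscle markers were higher too, and their part was not tested. After pneumonectomy Vcl (vinculin), Fermt2 (the kindlin of mesenchymal cells) and Lims1 rose by 1.08 ± 0.15, 0.88 ± 0.10 and 0.84 ± 0.10. After bleomycin Parvb rose by 4.82 ± 0.35, Sharpin, an inhibitor of Itgb1 activation, by 0.50 ± 0.08 and Fermt3, the kindlin of blood cells, by 2.04 ± 0.29 (with macrophage markers also higher), and Tns1 (tensin) changed by -1.36 ± 0.15. Of 19 kinases and scaffolds of focal adhesions, 12 were higher and 5 lower after bleomycin, 8 and 3 after pneumonectomy, and 5 and 5 at day 30, against the same shares of all genes; the medians were 0.40, 0.13 and -0.06. Bcar1, a docking protein of focal adhesions, rose by 1.46 ± 0.11 and 1.38 ± 0.11 in the 2 day 14 comparisons, and Ptk2, the focal adhesion kinase, by 0.87 ± 0.08 and 0.36 ± 0.08. Rock1 changed by -0.82 ± 0.07 after bleomycin, and Nedd9 rose by 1.53 ± 0.17 after pneumonectomy.

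The other 16 integrin subunits set the members in context. Of these, 11 passed the filter; 7 were higher and 2 lower after bleomycin, 5 and 0 after pneumonectomy, and 4 and 1 at day 30. Of all genes 63.3%, 42% and 28.8% were called in these comparisons, so the share after pneumonectomy was near that of all genes. Itga9 and Itga7 shared the direction of Itga8 at day 14. Itga9, a tenascin C receptor subunit, was at 5.98 to 6.5 RPKM after bleomycin, 12.4 to 16.9 after pneumonectomy and 9.76 to 11.9 in sham (log2 differences of -1.01 ± 0.11 and 0.64 ± 0.11). Itga7, a laminin receptor subunit of muscle, was at 2.14 to 3.27 RPKM after bleomycin, 7.05 to 11.9 after pneumonectomy and 5.91 and 3.06 in sham replicates 1 and 2 (-0.84 ± 0.26 and 1.26 ± 0.26), so that its bleomycin libraries overlapped with sham. The pericyte and smooth muscle marker sums were highest after pneumonectomy and in sham replicate 1, and their part in the results for Itga7 and Itga9 was not tested. Itga10 was called higher after pneumonectomy (0.86 ± 0.23) and at day 30 of bleomycin (0.67 ± 0.21).

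Subunits known from blood cells and endothelium were low in sham. Itgb2, the beta subunit of leukocytes, was at 0.820 to 1.59 RPKM in sham, 4.55 to 13.6 at day 14, 5.43 to 13.4 at day 30 and 1.06 to 1.83 after pneumonectomy. The leukocyte partners Itgam and Itgax rose by 2.89 ± 0.36 and 2.12 ± 0.43 at day 14 of bleomycin and by 1.93 ± 0.33 and 3.16 ± 0.39 at day 30. Itgal rose by 1.57 ± 0.38 at day 14 and was not called at day 30 (0.88 ± 0.35). Macrophage marker sums were high in the same 2 groups (11 of 13 tested markers called higher in each), and their part was not tested. Itga6, a laminin receptor subunit of endothelium and epithelium, was at 0.168 to 0.202 RPKM in sham and 2.57 to 4.01 at day 14 of bleomycin, where the endothelial sums were high too (3.42 ± 0.33). After pneumonectomy it was at 0.376 to 0.828 RPKM and called higher (1.498 ± 0.33). Itgb4 rose by 0.99 ± 0.34 after bleomycin and 0.96 ± 0.34 after pneumonectomy, Itgb7 rose by 1.03 ± 0.30 after bleomycin, and Itga2 was called in neither comparison.

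Likeness in level over the 13 libraries was measured as Pearson's r of scaled log2 values, which describes libraries that share groups and carries no test. The members most alike were Itga8 and Itgb8 (r = 0.906), Itga11 and Itgb3 (0.899) and Itga3 and Itgb1 (0.894). Of 11214 genes compared, those most like Itga8 were Pbxip1 (0.990), Sorl1 (0.988) and Fzd5 (0.985). Those most like Itga11 were Htra3 (0.961), Gdf1 (0.956) and Adamtsl3 (0.955), and those most like Itgav were Bnc2 (0.957), Hdac4 (0.947) and Man2a2 (0.944).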

How the data were processed

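RNA of mouse lung fibroblasts was sequenced from 200 ng of total RNA with TruSeq v2 kits, per the labels' protocols, in 13 libraries. The deposited values are RPKM computed by the authors for 43346 genes, on mm10 (GRCm38) per the submitters' processing notes; how reads were aligned and counted, on which annotation and with which strand setting, is not given in the sources used here. Depth was estimated from the steps between values under 0.03 RPKM with GENCODE M21 gene lengths, and 74.2% of 91254 low values came out as whole reads within 0.02 reads; precision from depth covers counting error only.

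Genes at 1 RPKM or more in at least 2 libraries (12938) were scaled with factors of the trimmed-mean type (30% of ratios and 5% of levels trimmed), log2-transformed after adding 0.1 and fitted in 1 model of 13 libraries with limma (version 3.58.1, under R 4.3.3), using robust empirical Bayes moderation with a trend. Adjusted p values are Benjamini-Hochberg, two-sided, called at 0.05, for 5 comparisons. With 2 sham libraries, the fit assumes that sham varies like the other groups. Levels are deposited RPKM with SD. The script was tested on simulated data.

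The members and lists were chosen with earlier results of these data known. Named are all members, the other subunits kept by the filter, for each list and comparison with sham up to 4 called genes with the smallest p at 1 RPKM or more in the higher group, and the 3 genes most like Itga8, Itga11 and Itgav, except 1 gene that is not reported here; values of these in a further group, and genes so marked, were chosen after their values were seen, as were Col1a1, Cdh5, Sftpc and the sex-linked genes. Alternatives were the deposited scale, upper-quartile scaling, pseudocounts of 1 and 0.01, no filter, no trend, the compared groups alone, a replicate block and each library left out. The fit of sham and bleomycin libraries alone was chosen after seeing the data. Promoter windows come from RefSeq (GRCm38.p6).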

Additional observations from a re-analysis of the deposited data

Results flagged for a closer look

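1 library stood apart within its group. Itgb8 in day 30 bleomycin replicate 4 was at 2.06 RPKM, where the nearest other library was at 1.497. This check covered 21 integrin subunits in the group of 5 libraries, and chance alone marks about 1 in 20.

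For 9 of the 10 members the effect of bleomycin against sham differed between day 30 and day 14, by the limma contrast of the 2 time points at an adjusted p under 0.05. This is the day 30 against day 14 comparison given above, in which 59.6% of all genes were called. The day 30 effect minus the day 14 effect, on the log2 scale, was -1.26 for Itga3, -1.46 for Itga5, -0.59 for Itgb1, 1.01 for Itga8, 1.37 for Itga11, 0.26 for Itgav, 0.76 for Itgb3, 0.76 for Itgb5 and 0.80 for Itgb8. Sham cancels from these differences, which set libraries with a female signal against libraries with a male one.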

How the results depend on the processing

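Over 720 refits of the member results, 644 kept their direction and side of the threshold, 46 lost a call, 12 gained one and 18 changed sign. On the deposited scale the median of all genes moved to 0.258, -0.206, 0.468, -0.128 and 0.112 for day 14 against sham, pneumonectomy against sham, day 14 against pneumonectomy, day 30 against day 14 and day 30 against sham, and the share of called genes that were higher went from 52.7% to 71.6%, 54.0% to 25.4% (35.2% under upper-quartile scaling), 51.1% to 77.4%, 48.5% to 34.8% and 51.2% to 76.4%. Upper-quartile scaling moved the median to -0.119 for pneumonectomy against sham and 0.125 for day 14 against pneumonectomy. For day 14 against pneumonectomy, Itga3 changed sign to 0.37 and Itgb1 to 0.36 on the deposited scale, and to 0.021 and 0.0068 under upper-quartile scaling. With each library left out in turn, that comparison gave -0.24 to 0.16 for Itga3 and -0.12 to 0.21 for Itga5. Pneumonectomy against sham gave -0.53 to 0.020 for Itgb3, 4 to 8 members called (9 with all libraries) and 3340 to 5079 genes called (5430 with all, 3481 with the compared groups alone). Day 30 against sham gave 0 to 4 members called (1 with all) and 1785 to 4085 genes (3731 with all; 2333 without sham replicate 1 and 1785 without sham replicate 2), and -0.60 to 0.24 for Itga3, -0.95 to 0.017 for Itga5, -0.84 to 0.023 for Itga11, -0.014 to 0.050 for Itgav and -0.065 to 0.10 for Itgb8. In that comparison 0 members were called on the deposited scale, under upper-quartile scaling, without the filter and with the compared groups alone. The causes were not tested.

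The replicate numbers did not pair the samples: of 7 pairs with the same number, whose deviations correlated at -0.127 to 0.136, 1 was over 0.1. With the replicate block, day 30 against sham gave 0 members and 367 genes called, with Itgav at -0.065 and Itgb8 at -0.0090, while day 14 against sham gave 8 members and 6786 genes (9 and 8188 without) and day 30 against day 14 gave 8 and 6043 (9 and 7712 without). No block could be fitted for pneumonectomy, whose columns carry no number.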
